A study of Picromerus lewisi with 6 samples.

Results

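Transporters for sugars and other small solutes were examined in glands that make the venom of Picromerus lewisi, a predatory stink bug of the family Pentatomidae that subdues insect prey with venomous saliva. A transcript cluster, the unit that was measured, was counted as a transporter when its first protein match came from the stink bugs Halyomorpha or Nezara and its Swiss-Prot match named a trehalose, glucose, amino acid, monocarboxylate, zinc or copper transporter, a solute carrier, an aquaporin, a sodium/potassium pump, a cotransporter or an inorganic phosphate carrier. This gave 142 of 22242 clusters, and the rule used no measured value. The glands came from adults (3 libraries) and from nymphs, which the series describes as of the 5th instar, the last juvenile stage (3 libraries). Both groups are labelled only by tissue and stage, with no strain, sex, age in days, treatment or number of animals in the labels. P-values therefore measure only how far these libraries scatter, which may be technical scatter.

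Insects circulate trehalose in the haemolymph as their main blood sugar, and facilitated transporters of the Tret1 type move it across cell membranes down its gradient. Most other carriers here are secondary transporters, which couple the movement of a solute to gradients of sodium, protons or chloride. The sodium/potassium pump builds the sodium gradient, aquaporins let water follow, and solute carriers of the SLC35 type load the Golgi and endoplasmic reticulum with nucleotide sugars, the donors for protein glycosylation. Secretory glands use such proteins to take up fuel and amino acids, to glycosylate its products and to make a fluid secretion.

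Values are FPKM, fragments per kilobase of cluster and scaled to library size, so levels may be compared between clusters of different length. The steps between low FPKM values gave back 13331742 to 18656705 fragments a library, counting clusters of 400 bases or more. The libraries detected very unequal numbers of clusters: 4927, 18155 and 8679 clusters reached 1 FPKM in the 3 adult libraries in order of replicate, against 14040, 10862 and 11693 in the 3 nymph libraries. Values were also divided by library factors, which were 0.2835, 1.643 and 1.559 in adults, against 1.022, 1.361 and 0.9902 in nymphs, and are then called rescaled. A value of 0 stays at 0 on rescaling, so rescaling does not correct unequal detection. In adult replicate 1, 15067 clusters were listed at 0, and the other values there rise on rescaling. Throughout, values of a stage stand in order of replicate 1, 2 and 3. Clusters named for products of the gland, such as venom proteins, serine proteases and cathepsins, summed to 67040, 503300 and 132700 FPKM in adults, against 91520, 178400 and 68250 in nymphs. Of these 139 clusters, 45, 13 and 54 were listed at 0 in adults, against 13, 40 and 27 in nymphs, and 2 short clusters held 43.9%, 43.9% and 28.1% of the sum in adults, against 18.9%, 19.1% and 15.0% in nymphs. In bulk tissue, fewer cells of a type and less RNA per cell cannot be told apart.

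The 142 clusters carried 63 Swiss-Prot names and were long for this assembly, with a median of 1315 bases (range 310 to 4725) against 589.5 over all clusters. Annotations outside the rule named the same kind of protein, but they describe the same cluster sequences and are not independent of the Swiss-Prot match. A domain was annotated in 125 clusters, a transporter domain in 120, and of 109 clusters with a molecular function 104 had a transporter or channel activity. The first protein match was unnamed, uncharacterized or hypothetical in 66. Identical first matches were shared in 9 cases, each by a pair of clusters. At least these 18 clusters could be fragments or copies of the same gene, and for those the reads cannot be assigned to 1 gene. Isoforms of a protein counted as different matches, so more clusters may be pieces of fewer genes. Cluster-9520.6370 and Cluster-9520.2358, for example, match isoforms X14 and X15 of glucose transporter type 1. Names throughout are those of the Swiss-Prot match, which comes from another species.

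Over clusters of all lengths, transporter transcripts were about as abundant as those of other clusters. Mean FPKM over the 6 libraries was under 5 in 111 of the 142 clusters (78.2%, against 79.5% of all clusters) and at least 10 in 10 of them (7.04%, against 9.53%). Among transporters of at least 1000 bases, 35, 80 and 63 of 88 reached 1 FPKM in adults, against 69, 59 and 44 in nymphs. Of all 6582 clusters that long, 2605, 6290 and 5087 did in adults, against 5541, 5378 and 5162 in nymphs. The transporter share lay furthest below the general one in nymph replicates 2 and 3. Summed over all 142, deposited FPKM was 150.3, 1261 and 792.4 in adults, against 1329, 533.7 and 348.6 in nymphs, so the libraries of a stage differed more than the stages did. A cluster entered the test with at least 1 FPKM in at least 3 libraries, which 96 of the 142 did, and 43 were above 0 in all 6 libraries. Of the others, 8 were listed at 0 in all adult libraries and 11 in all nymph libraries, that is 5.63% and 7.75% of the transporters, against 9.16% and 12.8% of all clusters.

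Between the stages, 1 of the 96 tested transporters passed the threshold (limma on log2 of rescaled FPKM + 1, Benjamini-Hochberg adjusted p under 0.05 over 11961 clusters), a trehalose transporter that was higher in adults. Over all clusters tested 28 passed, or 0.234%, of which 12 were higher in adults (0.1%) and 16 lower (0.134%). Unadjusted p was under 0.05 in 10 of the 96 transporters, or 10.4%, against 9.05% of all clusters. Of these 10, 4 were higher in adults, where the share over all clusters was 2.95%, and 6 were lower, where it was 6.09%. Deposited FPKM did not overlap between the stages in 3 transporters that were higher in adults and 4 that were lower, shares of 3.13% and 4.17% against 2.06% and 6.6% of all clusters. In rescaled FPKM these counts were 7 and 6, against 3.95% and 10.1%. The median log2 fold change of the tested transporters was -0.05 (46 above 0 and 50 below), and that of all clusters tested was -0.29. With quantile normalization 58 were above 0 and 38 below, with medians of 0.21 for the transporters and -0.02 for all clusters, and library quality weights also gave 58 and 38, with medians of 0.26 and -0.19. Over clusters of all lengths, the transporters apart from the trehalose transporter thus differed between stages about as often as other clusters. Of 71 tested transporters of at least 1000 bases, 39 were above 0 and 32 below, with a median of 0.19. Of all 6012 tested clusters that long, 2508 were above 0 and 3504 below, with a median of -0.17. Limma unadjusted p was under 0.05 in 4 higher and 3 lower of these transporters, against 204 and 204 of these clusters. Of the latter, 9 passed as higher and 0 as lower.

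**Figure D1:**
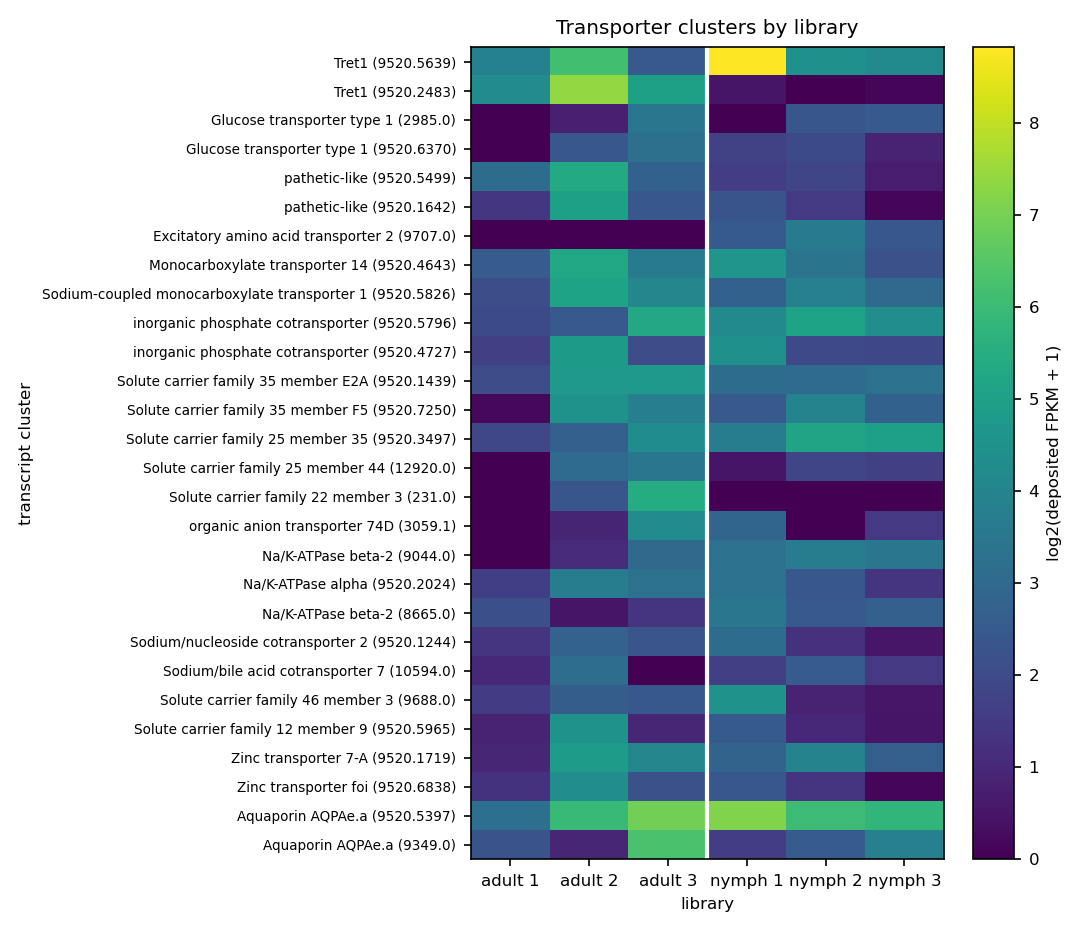
Deposited FPKM, as log2(FPKM + 1), of 28 transporter clusters (rows, with the Swiss-Prot name and cluster number) in 3 adult and 3 nymph libraries (columns). Cluster-9520.2483, a Tret1, is bright in the adult columns and dark in the nymph columns, whereas most other rows are brightest in a single library of either stage.

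The trehalose transporters were the largest family, with 35 clusters matching 32 different protein entries. Cluster-9520.2483, closest in Swiss-Prot to Tret1 of the sleeping chironomid Polypedilum vanderplanki, was at 18.0, 167 and 31.2 FPKM in adults, against 0.42, 0 and 0.12 FPKM in nymphs. Every adult library thus lay far above every nymph library. The values correspond to 476, 4663 and 1108 fragments in adult glands, against 12, 0 and 4 fragments in nymph glands. Rescaled FPKM averaged 61.7 ± 40.8 (SD, n = 3) in adults and 0.177 ± 0.211 in nymphs, a difference on the log2 scale of 5.47 with SE 0.66 (limma adjusted p = 0.0074). No nymph library reached 1 FPKM, so the cluster entered the test through the adult libraries alone, the stage where it was high. Leaving out adult replicate 1 gave a limma adjusted p of 0.068 and leaving out adult replicate 2 gave 0.093 when the same clusters were tested. It was from 0.00081 to 0.043 without each other library, while the log2 fold change stayed between 4.85 and 5.99.

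A second Tret1 cluster, Cluster-9520.5639, was the most abundant of all 142 and followed another pattern. It was at 13.6, 70.4 and 4.56 FPKM in adults, against 451, 20.5 and 17.5 FPKM in nymphs. The stages overlapped, and nymph replicate 1, with 16845 fragments, carried the nymph mean of 163 FPKM. The log2 difference of -1.33 (SE 1.31) did not pass (limma adjusted p = 0.79), and turned to 0.21 without nymph replicate 1. Among the trehalose transporters, Cluster-9520.2483 was the most abundant in each of the 3 adult libraries, with 30.6%, 36.4% and 32.5% of the family's FPKM. Cluster-9520.5639 was the most abundant in each of the 3 nymph libraries, with 62.3%, 20.6% and 31.9%, while Cluster-9520.2483 held 0.058%, 0% and 0.219% there. The leading trehalose transporter was thus a different cluster in adult and nymph glands, and only the change of Cluster-9520.2483 passed the test.

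The other trehalose transporters are described by the library in which they peaked, and those named next were picked with their values known. By deposited FPKM, 18 of the 35 clusters were highest in nymph replicate 1, 11 in adult replicate 2, 3 in adult replicate 3, 3 in nymph replicate 2 and none in adult replicate 1 or nymph replicate 3. After rescaling, nymph replicate 1 was highest for 12 of the 22 tested, and adult replicates 1 and 2 for 4 each. Cluster-9520.7175 was at 4.70, 34.2 and 2.85 FPKM in adult glands, against 2.86, 1.13 and 0.32 in nymph glands, with adult replicate 3 and nymph replicate 1 nearly level (log2 difference 2.29 with SE 0.86, limma adjusted p = 0.42). Cluster-9520.1640 was almost confined to adult replicate 2, at 0, 40.1 and 1.31 FPKM in adult glands, against 0.26, 0 and 0 in nymph glands. Cluster-1327.0 and Cluster-9520.6594 were listed at 0 in every nymph library and in adult replicate 1, at 5.07 and 7.39 FPKM and at 7.71 and 3.08 FPKM in adult replicates 2 and 3. In the other direction, Cluster-9520.313 was at 0, 2.0 and 2.5 FPKM in adult glands, against 35.3, 1.66 and 3.56 in nymph glands, high in nymph replicate 1 alone (limma adjusted p = 0.63). Cluster-9520.3202 was likewise at 0, 3.61 and 0 FPKM in adult glands, against 25.8, 2.91 and 0.73 in nymph glands (limma adjusted p = 0.71). Cluster-5570.0 had the lowest log2 difference of the family and was higher in more than 1 nymph library, at 0, 3.78 and 0 FPKM in adult glands, against 9.23, 2.82 and 5.96 in nymph glands (log2 difference -2.01 with SE 0.82, limma adjusted p = 0.49, unadjusted p = 0.033). By contrast, Cluster-9520.684, matching the Tret1-2 homolog, was spread over all libraries, at 1.76, 6.41 and 10.2 FPKM in adult glands, against 9.41, 5.29 and 4.16 in nymph glands. Cuticle and chitin markers also peaked in nymph replicate 1, in 15 of 22 clusters, and their sums were 3.7, 16.8 and 8.0 FPKM in adults, against 328.7, 62.41 and 67.78 in nymphs. Of the 22, the adult libraries listed 20, 14 and 19 at 0, against 2, 12 and 5 in nymph glands. Their part in the trehalose transporter values was not tested.

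**Figure D2:**
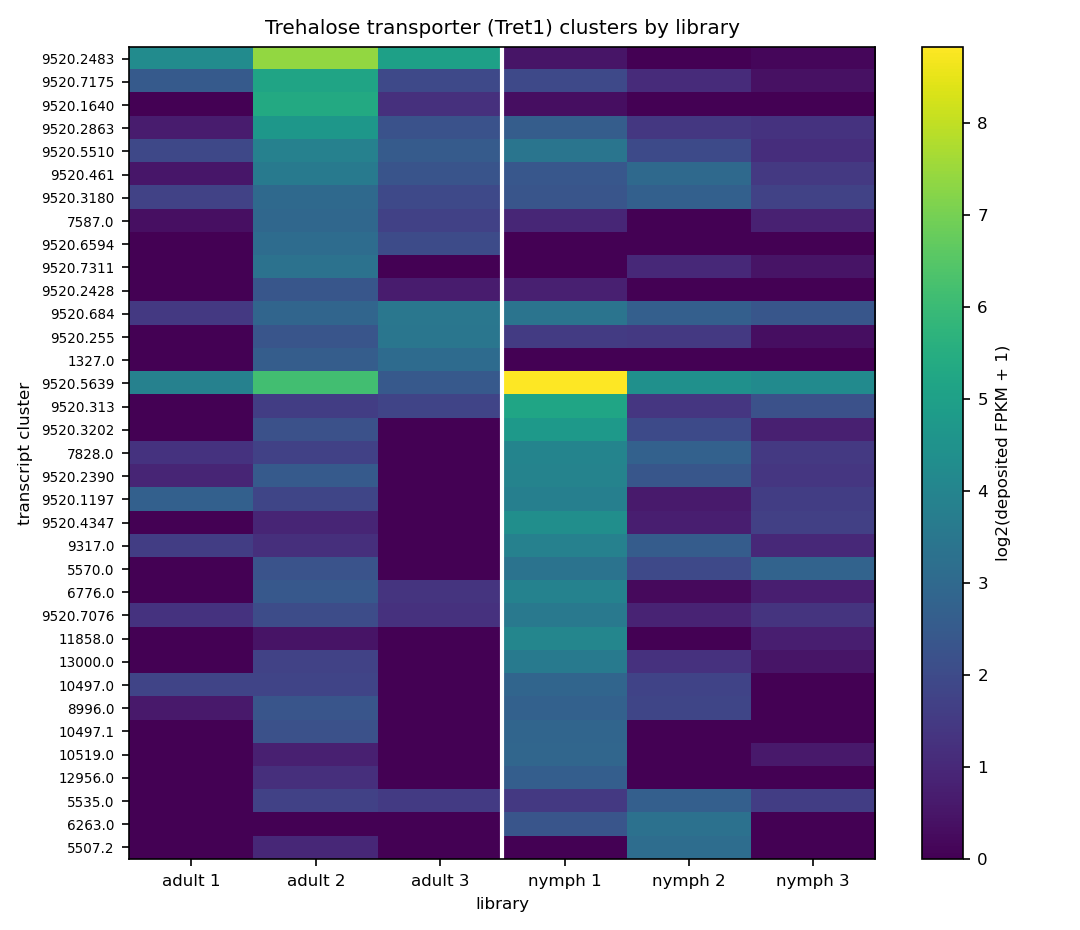
Deposited FPKM, as log2(FPKM + 1), of all 35 trehalose transporter clusters (rows, ordered by the library in which each was highest) in 3 adult and 3 nymph libraries (columns). The 11 clusters highest in adult replicate 2 form the top block and the 18 highest in nymph replicate 1 form the large lower block.

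Clusters named for glucose transporters summed to less FPKM in every library than those named for trehalose transporters, a family of 35 clusters. The names are those of the Swiss-Prot match, and substrates were not tested. The 6 clusters of this family, which match glucose transporter type 1 and its relatives of solute carrier family 2, summed to 0, 24.0 and 19.0 FPKM in adults, against 21.7, 16.7 and 8.88 FPKM in nymphs. All 6 were listed at 0 in adult replicate 1, as were 78 of the 142 transporters and 15067 of all 22242 clusters. The leading pair, Cluster-2985.0 and Cluster-9520.6370, were at 0, 0.73 and 10.1 FPKM in adults, against 0, 4.13 and 4.7 in nymphs, and at 0, 4.32 and 8.58 FPKM in adults, against 2.33, 2.95 and 0.83 in nymphs. Neither passed (limma adjusted p = 0.93 and 0.97), and the sign of the second turned with a pseudocount of 0.1 or 0.5. The trehalose family summed to 58.9, 458 and 96.0 FPKM in adult glands, against 724.3, 99.6 and 54.9 FPKM in nymph glands. Trehalase, which splits trehalose into glucose, was represented by Cluster-9520.4904 at 8.66, 12.2 and 36.8 FPKM in adult glands, against 47.3, 36.7 and 13.0 in nymph glands (limma adjusted p = 0.84). Of the 3 clusters of trehalose metabolism 2 were tested, and neither passed. The second, trehalase Cluster-9520.2581, was at 1.67, 10.8 and 4.20 FPKM in adult glands, against 8.55, 1.32 and 1.29 in nymph glands (limma adjusted p = 0.8).

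None of the 20 amino acid transporter clusters passed the test, and the clearest separations of the stages ran in both directions. Cluster-9520.5499, matching pathetic of Drosophila, a proton-coupled transporter known there for supporting cell growth, was at 7.69, 41.4 and 5.62 FPKM in adult glands, against 2.04, 2.55 and 0.64 in nymph glands. Its stages did not overlap, and its rescaled FPKM was 18.6 ± 13.1 (SD, n = 3) in adults and 1.51 ± 0.746 in nymphs. The log2 difference of 2.63 (SE 0.77) did not pass (limma adjusted p = 0.29), and it passed without adult replicate 3 with the same clusters tested (limma adjusted p = 0.037, 0.37 to 0.67 without each other library). The second pathetic-like cluster, Cluster-9520.1642, was at 1.66, 31.6 and 4.29 FPKM in adult glands, against 3.85, 1.85 and 0.09 in nymph glands, where adult replicate 1 lay below 2 of the nymph libraries (log2 difference 1.8 with SE 0.83, limma adjusted p = 0.57). Cluster-9707.0, matching excitatory amino acid transporter 2, a sodium-driven glutamate carrier of glia and neurons in mammals, was listed at 0 in all 3 adult libraries and was at 4.65, 11 and 4.31 FPKM in nymph glands, or 82, 240 and 89 fragments. It entered the test through the nymph libraries alone and did not pass (limma adjusted p = 0.22). A shorter relative, Cluster-13068.0, named after its values were seen, was at 0, 1.12 and 0 FPKM in adult glands, against 0.83, 7.25 and 6.39 in nymph glands (limma adjusted p = 0.5). Of 17 neuron markers tested, 8 were above 0 and 9 below, with sums of 28.1, 249.4 and 150.4 FPKM in adult glands, against 73.7, 124.5 and 80.6 in nymph glands, and their part was not tested.

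Adult replicate 2 was the highest library for 12 of the 20 amino acid transporters by deposited FPKM, and for 5 of the 13 tested after rescaling. The b(0,+)-type transporter Cluster-9520.2527, of a type that exchanges cystine and basic amino acids in mammals, was at 2.41, 29.7 and 0.57 FPKM in adult glands, against 2.57, 0.36 and 0.52 in nymph glands, so that only adult replicate 2 stood out. The high affinity cationic transporter Cluster-9520.2230, for arginine and lysine, was at 2.35, 16.5 and 3.65 FPKM in adult glands, against 7.78, 0.81 and 0.67 in nymph glands. Cluster-9520.7235 and Cluster-9520.7236, both proton-coupled and matching CG1139 of Drosophila, reached 12.4 and 13.0 FPKM in adult replicate 2 and at most 1.09 in any nymph library. These 4 clusters were picked with their values known, and none passed the test or, for the last pair, the filter. The 13 tested amino acid transporters had a median log2 fold change of -0.05, with 6 above 0 and 7 below. That median was below 0 in 15 of 23 settings, the reported one included, and above 0 in 8, as with quantile normalization, at 0.57. These settings are not independent, as set out with the family medians below.

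Monocarboxylate transporters move lactate, pyruvate and ketone bodies in mammals, although several members of the family have other or unknown substrates. Cluster-9520.4643, matching member 14, was at 4.92, 37.2 and 11.3 FPKM in adult glands, against 23.9, 9.40 and 3.58 in nymph glands, with overlapping stages (log2 difference 0.67 with SE 0.70, limma adjusted p = 0.8). The sodium-coupled transporter Cluster-9520.5826 was at 3.32, 33.9 and 16.1 FPKM in adult glands, against 5.74, 13.3 and 7.10 in nymph glands. Its rescaled FPKM did not overlap, at 14.2 ± 5.59 (SD, n = 3) in adults and 7.53 ± 2.11 in nymphs (log2 difference 0.81 with SE 0.52, limma adjusted p = 0.73). The next 3 were picked with their values known. Cluster-6525.0, matching member 13, was at 0, 0.77 and 0 FPKM in adult glands, against 6.68, 3.66 and 3.32 in nymph glands without overlap (limma adjusted p = 0.34). This cluster, too, entered the test through the nymph libraries alone. Cluster-9520.7504, matching member 12, had no overlap the other way, at 1.58, 4.10 and 3.31 FPKM in adult glands, against 1.55, 0 and 0.50 in nymph glands (limma adjusted p = 0.65). In deposited FPKM its adult replicate 1 and nymph replicate 1 were nearly level, with 27 and 29 fragments. Cluster-9520.1210, sodium-coupled type 2, was listed at 0 in all nymph libraries and in adult replicate 3, and was at 1.16 and 12.5 FPKM in adult replicates 1 and 2.

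Inorganic phosphate cotransporters, of a family that in vertebrates also carries organic anions into vesicles, had 7 clusters, 6 of them tested and none past the threshold. Cluster-9520.5796 was at 2.95, 4.57 and 39.2 FPKM in adult glands, against 17.1, 33.5 and 19.0 in nymph glands, and adult replicate 3 lay above all nymph libraries while adult replicates 1 and 2 lay below them (limma adjusted p = 0.74). Cluster-9520.4727 was at 2.21, 26.9 and 3.01 FPKM in adult glands, against 20.4, 2.88 and 2.79 in nymph glands. It peaked in adult replicate 2 and nymph replicate 1 (limma adjusted p = 0.94). The median over the 6 was -0.54, with 2 above 0 and 4 below.

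The SLC35 family, nucleotide sugar transporters and relatives of the Golgi and endoplasmic reticulum, had no member past the threshold. By deposited FPKM all 6 clusters peaked in adult replicate 2, as did 33.7% of all clusters. After rescaling, 3 of the 5 tested peaked there, 1 in adult replicate 3 and 1 in nymph replicate 1. Deposited sums were 6.79, 96.3 and 52.3 FPKM in adults, against 24.9, 26.0 and 19.0 in nymphs. Member E2A, Cluster-9520.1439, was at 3.06, 26.3 and 26.1 FPKM in adult glands, against 7.65, 7.38 and 8.82 in nymph glands, and the rescaled values did not overlap, at 14.5 ± 3.25 (SD, n = 3) in adults and 7.27 ± 1.75 in nymphs (log2 difference 0.91 with SE 0.50, limma adjusted p = 0.68). Member F5, Cluster-9520.7250, was at 0.15, 21.6 and 12.6 FPKM in adult glands, against 4.53, 14.5 and 5.62 in nymph glands (log2 difference -0.37 with SE 0.83, limma adjusted p = 0.91). The sign for F5 turned with quantile normalization and with library quality weights. Member C2, Cluster-9520.6508, named after its values were seen, was at 0.95, 19.7 and 8.89 FPKM in adult glands, against 1.53, 2.89 and 1.14 in nymph glands (log2 difference 1.5 with SE 0.66, limma adjusted p = 0.53). Of 5 tested, 4 were above 0 with a median of 0.91, 1.2 above the median of all clusters, and the median ran from 0.48 to 1.19 over 23 settings. Venom proteins and proteases also had their highest deposited sum in adult replicate 2, 503300 FPKM, and their part in these values was not tested.

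Among mitochondrial carriers, SLC25 member 35 (Cluster-9520.3497), a carrier of the inner membrane, was at 2.67, 5.47 and 18.6 FPKM in adult glands, against 12.5, 34.8 and 30.2 in nymph glands. Its rescaled FPKM was 8.22 ± 4.42 (SD, n = 3) in adults and 22.8 ± 9.47 in nymphs without overlap (log2 difference -1.41 with SE 0.60, limma adjusted p = 0.51). Cluster-12920.0, matching member 44, a carrier of branched-chain amino acids in mammals, was at 0, 7.40 and 10.1 FPKM in adult glands, against 0.43, 2.63 and 2.17 in nymph glands (limma adjusted p = 0.87). The mitochondrial carriers outside the SLC25 names were led by the ADP,ATP carrier Cluster-9520.4467, at 94.1, 610 and 902 FPKM in adult glands, against 632, 1117 and 678 in nymph glands (limma adjusted p = 0.74). Of 12 such clusters 11 were tested, 3 above 0 and 8 below with a median of -0.57, and none passed. One of these, Cluster-9520.2776, is an acyl carrier protein of the mitochondrion and no transporter, at 2.02, 12.7 and 16.3 FPKM in adult glands, against 13.0, 23.6 and 19.3 in nymph glands.

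The organic ion transporters were short clusters, with a median of 490 bases, and 5 of the 10 were highest in adult replicate 3 by deposited FPKM. After rescaling, 2 of the 6 tested were. Cluster-231.0, matching the organic cation transporter SLC22 member 3, was at 0, 4.16 and 42.8 FPKM in adult glands and was listed at 0 in every nymph library, and at 376 bases it is short enough that its FPKM depends on the length correction. It shared a first protein match with Cluster-9520.7365. Cluster-3059.1 matches the organic anion transporter 74D in Swiss-Prot, known in Drosophila for importing the moulting hormone ecdysone into cells. It was at 0, 0.88 and 18.2 FPKM in adult glands, against 6.42, 0 and 1.77 in nymph glands (limma adjusted p = 1), with no direction that held under other scalings. In all, 5 clusters matched that transporter, and 2 of them, Cluster-3059.1 and Cluster-9520.2175, shared a first protein match, named member 2A1 there. None of the family passed the test, and 6 were tested with 3 above 0 and 3 below.

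No subunit of the sodium/potassium pump passed the test. The catalytic alpha subunit (Cluster-9520.2024) was at 2.12, 12.2 and 8.99 FPKM in adult glands, against 8.83, 4.32 and 1.54 in nymph glands, and after rescaling at 6.88 ± 0.966 (SD, n = 3) in adults and 4.46 ± 3.71 in nymphs (log2 difference 0.74 with SE 0.64, limma adjusted p = 0.77). The beta subunit is the chaperone and anchor of the alpha subunit, and several clusters matched its type 2. Cluster-9044.0 was at 0, 1.12 and 7.21 FPKM in adult glands, against 8.76, 12.1 and 10.1 in nymph glands, without overlap (log2 difference -2.27 with SE 0.73, limma adjusted p = 0.33). Cluster-8665.0 was at 3.45, 0.42 and 1.48 FPKM in adult glands, against 10.1, 4.54 and 5.50 in nymph glands, also without overlap, which was lost on rescaling (log2 difference -1.09 with SE 0.90, limma adjusted p = 0.76). That difference was -2.29 without adult replicate 1 and -0.41 without adult replicate 2. Cluster-9520.2411, named after its values were seen, was at 0, 23.3 and 5.07 FPKM in adult glands, against 1.72, 2.53 and 0.97 in nymph glands (limma adjusted p = 0.85). Muscle markers, of a tissue rich in this pump, had 15 of 20 tested clusters below 0, with a median of -0.94, and none passed. Their sums were 76.6, 115.9 and 213.3 FPKM in adult glands, against 239.6, 309.0 and 464.7 in nymph glands, and their part in the beta subunit values was not tested.

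The other cotransporters were all below 8 FPKM in every library. Bumetanide-sensitive sodium-potassium-chloride cotransporters, which drive fluid secretion in many epithelia, had 4 clusters under that name, from 0 to 6.14 FPKM in adults and from 0 to 7.91 FPKM in nymphs. The leading pair of this group, a nucleoside cotransporter (Cluster-9520.1244) and a bile acid cotransporter 7 (Cluster-10594.0), were at 1.52, 5.9 and 3.96 FPKM in adults, against 7.58, 1.37 and 0.44 in nymphs, and at 0.98, 7.84 and 0 FPKM in adults, against 2.16, 4.84 and 1.74 in nymphs (limma adjusted p = 0.81 and 0.95), and the sign of the second turned with quantile normalization. Of the 7 remaining solute carriers, SLC12 member 9 (Cluster-9520.5965) was at 0.85, 22 and 0.91 FPKM in adult glands, against 4.67, 1.03 and 0.41 in nymph glands, high in adult replicate 2 alone (limma adjusted p = 0.8). SLC46 member 3 (Cluster-9688.0), a lysosomal carrier in vertebrates, was at 1.96, 5.11 and 4.34 FPKM in adult glands, against 21.6, 0.81 and 0.45 in nymph glands, high in nymph replicate 1 alone (limma adjusted p = 0.92).

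Zinc transporters comprised 11 clusters, and no copper transporter was found by name. Zinc transporter 7, which loads zinc into the early secretory pathway in vertebrates, was at 0.93, 28.4 and 15.4 FPKM in adult glands, against 6.02, 14.3 and 5.37 in nymph glands (Cluster-9520.1719, log2 difference 0.25 with SE 0.64, limma adjusted p = 0.92). Cluster-9520.6838, matching foi of Drosophila, an importer of zinc into the cytosol, was at 1.46, 18.8 and 3.57 FPKM in adult glands, against 4.27, 1.54 and 0.11 in nymph glands (log2 difference 1.45 with SE 0.81, limma adjusted p = 0.69). All 6 tested zinc transporters were above 0, with a median of 0.77 (range 0.19 to 1.45), and none passed. A pseudocount of 0.1 gave 4 above and 2 below, as did leaving out adult replicate 3 with the same clusters tested, where the median was 0.42. With no filter on low values, 7 of the 11 were above 0 and 4 below, with a median of 0.25.

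Among the 142 clusters, a water channel had the second highest mean FPKM, after the trehalose transporter Cluster-9520.5639. Cluster-9520.5397, matching an aquaporin of the mosquito Aedes aegypti, was at 8.39, 61.2 and 122 FPKM in adult glands, against 141, 65.6 and 54.5 in nymph glands. It was expressed in every library and its stages overlapped (log2 difference -0.68 with SE 0.60, limma adjusted p = 0.77). Cluster-9349.0, another aquaporin, was concentrated in adult replicate 3, at 3.77, 0.91 and 77.1 FPKM in adult glands, against 2.01, 4.96 and 13.2 in nymph glands (log2 difference 0.84 with SE 1.13, limma adjusted p = 0.84). Of the 5 aquaporin clusters, 4 were below 0, with a median of -0.68, and none passed.

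**Figure D3:**
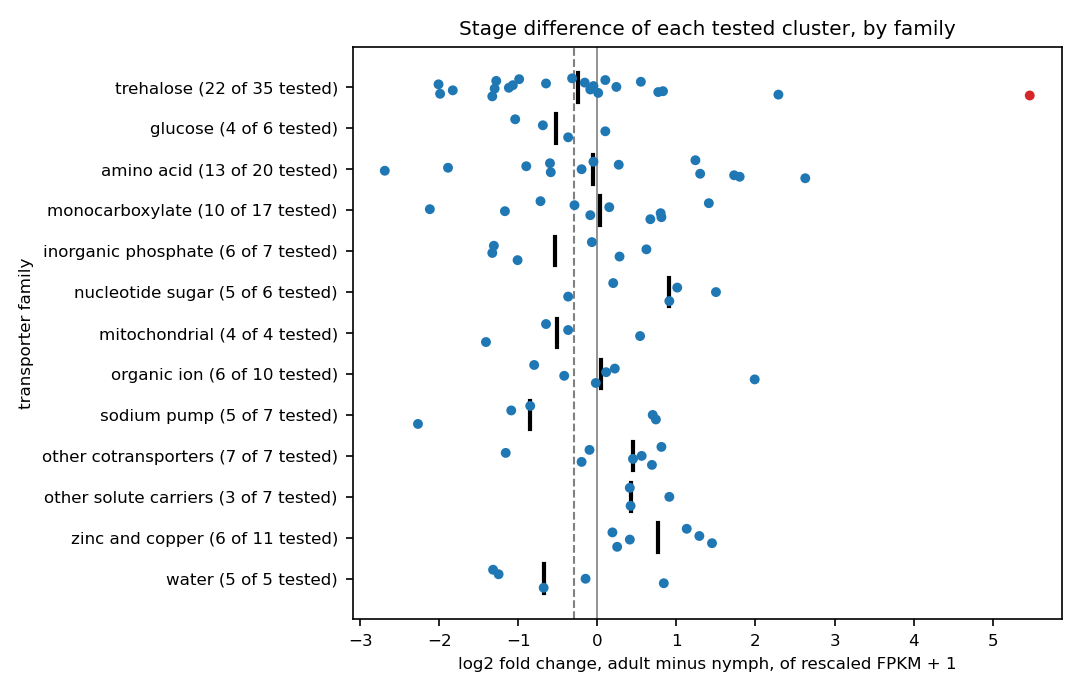
Log2 fold change, adult minus nymph, of rescaled FPKM + 1 for each tested transporter cluster (points) by family (rows). The red point is Cluster-9520.2483 at 5.47, the transporter that passed the test; black bars are family medians, the solid line is 0 and the dashed line is the median of all tested clusters, -0.29.

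Across families, medians ran from -0.85 for the sodium pump to 0.91 for the SLC35 carriers, and they were read against settings because 3 to 22 clusters make up each. The SLC35, zinc, other cotransporter and remaining solute carrier medians were above 0 in all 23 settings, and those of the sodium pump and aquaporins were below 0 in all 23. The median of all clusters was itself below 0, and relative to it neither of the last pair held a direction: the difference ran from -1.21 to 0.27 for the pump and from -0.78 to 0.04 for the aquaporins. The trehalose family lay at -0.24 with 8 above 0 and 14 below. The split was 11 and 11 with quantile normalization, and 13 above and 9 below with library quality weights, where the median was 0.15. With no filter on low values, 14 of all 35 were above 0 and 21 below. With the same clusters tested, leaving out nymph replicate 1 gave 14 above and 8 below with a median of 0.31, and leaving out nymph replicate 3 gave 6 above and 16 below with a median of -0.84. The median was above 0 in 3 of 23 settings. Of these 23 settings, 7 were chosen after seeing the data. The 23 are not independent. Plain limma and the replicate block cannot change a fold change in this balanced design, so both repeat the reported medians. Each library was left out both with the filter applied anew and with the same clusters tested.

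Single libraries held most of the peaks. Deposited FPKM was highest in adult replicate 2 for 57 of the 142 transporters (40.1%, against 33.7% of all clusters) and in nymph replicate 1 for 42 (29.6%, against 21.8%). Of these 42, 18 were trehalose transporters. Among clusters of at least 1000 bases, 47 of 88 transporters were highest in adult replicate 2, against 2582 of all 6582. In nymph replicate 1 the numbers were 22 and 888. Of all 142 transporters, none was highest in adult replicate 1 and 3 were highest in nymph replicate 3 (2.11%, against 8.13%). Transporters at 1 FPKM or more numbered 41, 117 and 74 in adults, against 100, 82 and 68 in nymphs, the most in adult replicate 2. After rescaling, adult replicate 2 was the highest library for 24.0% of tested transporters and nymph replicate 1 for 35.4%, against 13.4% and 22.6% of all tested clusters.

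**Figure D4:**
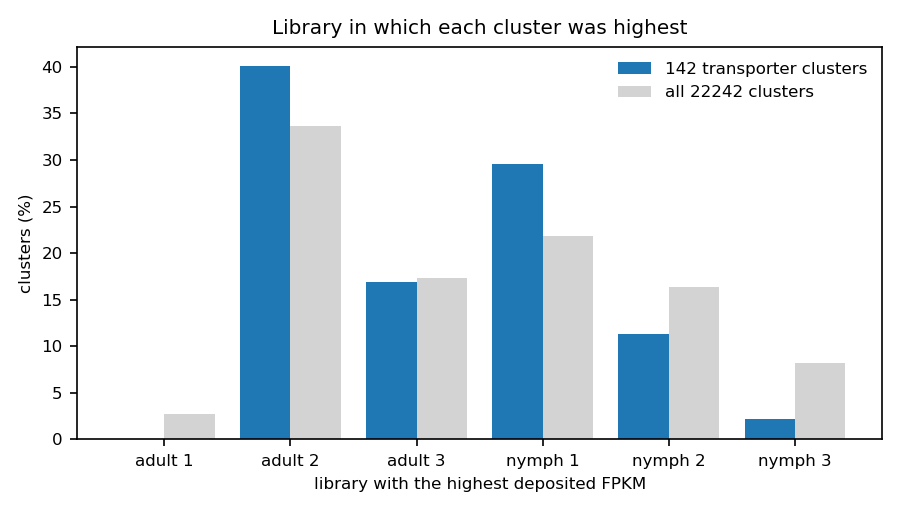
Share of clusters (percent, bars from 0) with their highest deposited FPKM in each of the 6 libraries, for the transporters (blue) and for all clusters (grey). The transporters exceed the general share in adult replicate 2 (40.1% against 33.7%) and nymph replicate 1 (29.6% against 21.8%). Trehalose transporters make up 18 of the 42 transporters highest in nymph replicate 1.

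Other transport systems of the gland had no cluster past the threshold. ABC transporters, pumps driven by ATP, had 35 of 74 clusters tested, 18 above 0 and 17 below, with a median of 0.08. Their leading names were subfamily F member 2, which in other animals is a cytosolic protein without membrane segments: Cluster-9520.4568 was at 5.37, 29.0 and 38.7 FPKM in adult glands, against 32.9, 68.1 and 39.7 in nymph glands (limma adjusted p = 0.63), and the short Cluster-9520.4567 was at 0, 48.9 and 0 FPKM in adult glands, against 114, 48.4 and 31.1 in nymph glands (limma adjusted p = 0.29). The V-ATPase, the proton pump that acidifies organelles and energizes proton-coupled uptake, had 15 of 16 clusters tested, 6 above 0 and 9 below, with a median of -0.26. Its leading clusters were the proteolipid subunit c (Cluster-9520.6211), at 28.2, 99.5 and 152 FPKM in adult glands, against 45.5, 48.0 and 79.4 in nymph glands (limma adjusted p = 0.74), and subunit E (Cluster-9520.3805), at 15.6, 46.4 and 127 FPKM in adult glands, against 44.9, 70.2 and 76.1 in nymph glands (limma adjusted p = 0.95). Other organic transporters had 23 of 35 clusters tested, 15 above 0 and 8 below. They were led by an organic cation transporter (Cluster-9520.4834), at 8.79, 133 and 21.0 FPKM in adult glands, against 29.8, 10.01 and 4.14 in nymph glands (limma adjusted p = 0.61), and choline transporter-like 2 (Cluster-9520.2006), at 3.53, 66.4 and 8.73 FPKM in adult glands, against 7.19, 6.66 and 5.40 in nymph glands (limma adjusted p = 0.7).

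Markers of other cells that a dissected gland can hold had no call. Of 11 haemocyte clusters tested 8 were above 0 and 3 below, with sums of 206.0, 2164 and 502.3 FPKM in adult glands, against 1822, 902.0 and 256.7 in nymph glands. Of 4 fat body clusters tested 1 was above 0 and 3 below, with sums of 16.2, 1.85 and 57.9 FPKM in adult glands, against 29.2, 33.1 and 29.9 in nymph glands. In adult replicate 3, 42.6 FPKM of that sum came from Cluster-1537.0, which matches the receptor of vitellogenin. This untested cluster of 399 bases was listed at 0 in every other library, so the sum there may not follow fat body. All 10 tested cuticle and chitin clusters and the single tracheal cluster were below 0. The sum of the clusters listed for haemocytes, like the trehalose transporter sum, was highest in adult replicate 2 and nymph replicate 1 within its stage. Most of it came there from 2 clusters named phenoloxidase-activating enzyme, Cluster-9520.4471 and Cluster-9520.4452. They were at 1272 and 312 FPKM in adult replicate 2 and at 522 and 1078 FPKM in nymph replicate 1. The sum may therefore not follow haemocytes, and its part in the transporter values was not tested.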

How the data were processed

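The authors deposited 1 table of FPKM with 1 column per library and cluster annotations. Per the submitters' processing notes, the tools were DESeq2 1.20.0, featureCounts 1.5.0-p3, HISAT2 2.0.5, fastp and CASAVA 1.8, whose roles are not listed. The assembly and the tool behind the FPKM are not given in the sources used here. Per the labels' protocols, TRIzol served for extraction and a NEBNext Ultra kit for the libraries.

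The members and lists were chosen with earlier results of these data known. To rescale a library, its FPKM were divided by their median ratio to the clusters' geometric means, taken over the 4653 clusters that no library lists at 0. Clusters reaching 1 FPKM in 3 or more libraries were tested with limma 3.58.1 in R 4.3.3 on log2(rescaled FPKM + 1), with trend and robust, adult minus nymph, and adjusted over all clusters tested. This scale understates changes of low clusters. The procedure was tested on simulated data.

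Fragments were recovered by fitting each library's total and a length offset (217 to 293 bases), so that low values came out whole. In 1100 to 1500 base clusters left out of that fit, 99.4% to 99.8% lay within 0.15 of a whole fragment. Because the offset differs between libraries, short clusters compare less well. Fragment numbers carry counting error only, and no interval is given.

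Named are the transporter past the threshold, the 2 most abundant of each transporter family and of each list of other transport genes, and up to 8 rises and 8 falls without overlap in deposited FPKM and with a mean of at least 5 FPKM in the higher stage, so that the stage where a cluster is high decided its choice. Of the last kind 2 were higher and 3 lower in adults. Where the text names others, it says so.

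Alternatives were 2 pseudocounts, 2 filters, 3 scalings, plain limma, a replicate block, each library left out and any species of the protein match.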

Additional observations from a re-analysis of the deposited data

How the results depend on the processing

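Cluster-9520.2483 passed under every alternative that tested it with all 6 libraries, the replicate block among them (limma adjusted p from 2.6e-08 to 0.034, log2 fold change from 5.25 to 7.82). Leaving out an adult library took it below the filter of 3 libraries, so the count of transporters past the threshold was then 0, while it was 1 without each nymph library. With the clusters of the full set still tested, an alternative chosen after seeing the data, it lay between 0 and 2. The count over all clusters, 28 as reported, was 12 at pseudocount 0.1, 65 when filtered on mean FPKM, 104 with no filter, 72 on FPKM as deposited and 65 with library quality weights, which were also chosen after seeing the data. It ran from 1 to 54 with single libraries left out, and from 8 to 85 with the clusters of the full set. With the replicate block it was 29, and no transporter changed its call. Same-numbered libraries of the stages correlated at 0.165, -0.043 and 0.213 in their deviations. Adult replicates 1 and 3 correlated best with the nymph library of the same number, whereas adult replicate 2 correlated best with nymph replicate 1 (0.137). With 3 libraries a stage, such values cannot decide whether the numbers pair the libraries. The median of tested transporters ran from -0.24 to 0.31, always above that of all clusters. The rule without its species condition found the same 142 clusters.

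Among uncalled clusters, signs turned for glucose transporter Cluster-9520.6370 (-0.58 and -0.03 with pseudocounts of 0.1 and 0.5), Cluster-9520.4727 (-0.03 at an equal total), Cluster-9520.7250 (0.03 with quantile normalization, 0.08 with quality weights), Cluster-3059.1 (0.27 as deposited, 0.26 at an equal total, 0.15 with quantile normalization, 0.13 with quality weights), Cluster-10594.0 (0.25 with quantile normalization, 0.07 with quality weights) and Cluster-9349.0 (-0.49 with quality weights). With a library left out, the log2 differences ran from -1.23 to 0.23 for Cluster-2985.0, -0.46 to 0.93 for Cluster-9520.6370, -0.33 to 1.13 for Cluster-9520.4727, -0.01 to 1.55 for Cluster-12920.0, -1.0 to 0.62 for Cluster-9520.7250, -1.09 to 0.73 for Cluster-3059.1, -0.65 to 0.53 for Cluster-10594.0, -0.26 to 1.69 for Cluster-9688.0, -2.18 to 0.21 for Cluster-9520.5639, -0.34 to 2.16 for Cluster-9349.0 and -0.24 to 0.85 for Cluster-9520.1719. The cause was not tested.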
